A study of Mus musculus with 6 samples.

Results

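The genes of the urea cycle and of hepatic ammonia handling were examined in liver RNA-seq of male C57BL/6 mice on a high-fat diet (HFD). The 10 genes were chosen by name for their known roles, after earlier results of these data had been seen. They are the rows whose gene symbol was Cps1, Otc, Ass1, Asl, Arg1, Nags, Glul, Gls2, Slc25a15 or Slc25a13, out of 45777 genes listed. All 10 were found and all 10 passed the filter on low counts, which kept 17274 genes. There were 3 LT libraries, from littermates carrying Fpn fl/fl, and 3 libraries labelled Fpn-LKO, from mice carrying Alb-Cre and Fpn fl/fl. Fpn is the iron exporter ferroportin, encoded by Slc40a1. Both groups therefore carried the floxed allele, which came from a 129S line and was backcrossed to C57BL/6J, and differed in the albumin-driven Cre, which acts in hepatocytes. The control group carried no Cre. The labels gave neither age nor length of feeding, and placed all 6 libraries in the same batch.

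The urea cycle turns the ammonia released by amino acid breakdown into urea, and its full set of enzymes is found in hepatocytes, mainly those near the portal vein. The first steps take place in mitochondria, where CPS1 needs N-acetylglutamate made by NAGS, and the later steps in the cytosol, so carriers of ornithine, citrulline and aspartate have to connect both compartments. Ammonia is also released from glutamine by the liver-type glutaminase GLS2 in periportal cells, whereas the glutamine synthetase GLUL captures what the cycle leaves in the cells around the central vein.

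Total counts were between 43086184 and 47778683 per library, and the members had between 1238 and 217421 reads in a library, so sampling of reads adds little to the differences between mice for these genes. Slc40a1 itself was at 154, 180 and 126 CPM (normalised read count, scaled to library size by TMM) in LT, and the libraries labelled Fpn-LKO had 144, 143 and 176 CPM. Its groups overlapped, with a log2 fold change of 0.0073, so the count over the whole gene, which takes in any exon outside the floxed part, did not separate the labels, and Fpn-LKO stands below for libraries so labelled. Hepatocyte marker genes summed to between 76216 and 92491 CPM in LT and between 79052 and 87600 CPM in Fpn-LKO, and none of the 10 was at 0. This sum was dominated by Alb, at between 38068 and 48160 CPM in a library. Rn7s1, Rn7s2, Rn7sk, Rpph1 and Rmrp, which are RNAs without a poly(A) tail, together took between 7.65% and 8.76% of counts in LT. In Fpn-LKO they took 10.2%, 3.29% and 4.49%, and other RNAs of this kind were not counted here.

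The start regions of Slc25a15, Ass1 and Otc, which were among the members with an unadjusted p under 0.05 or with groups that did not overlap, are shown so that known regulatory motifs can be read beside their values. They are the bases before the RefSeq start in GRCm38.p6, each read 5′ to 3′ on the gene's own strand, with matches to GGGCGG (the GC box, sought on both strands) in capitals. Slc25a15 starts on the minus strand of chromosome 8, with its window at chr8:22398622-22398871. The Ass1 window lies on the plus strand at chr2:31470020-31470206, and the Otc window on the plus strand at chrX:10252055-10252229. The latter pair is shorter because bases inside another annotated transcript of the gene were left out.
Slc25a15: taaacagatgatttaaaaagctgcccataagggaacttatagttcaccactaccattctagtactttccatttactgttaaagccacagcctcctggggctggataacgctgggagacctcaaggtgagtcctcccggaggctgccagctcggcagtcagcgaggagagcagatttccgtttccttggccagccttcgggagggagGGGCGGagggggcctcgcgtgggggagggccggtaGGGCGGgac
Ass1: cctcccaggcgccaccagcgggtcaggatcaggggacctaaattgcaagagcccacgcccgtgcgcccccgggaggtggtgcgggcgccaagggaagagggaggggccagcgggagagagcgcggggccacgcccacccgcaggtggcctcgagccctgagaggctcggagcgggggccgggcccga
Otc: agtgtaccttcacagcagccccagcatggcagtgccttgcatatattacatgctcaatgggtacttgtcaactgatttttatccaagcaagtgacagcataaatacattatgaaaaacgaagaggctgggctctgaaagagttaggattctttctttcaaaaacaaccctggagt
The Slc25a15 window held 2 GC boxes and the Ass1 and Otc windows none, against 32.7% of 32851 mouse promoter windows of 250 bases that held at least 1. The Slc25a15 window also lies in the annotated gene 1810012K16Rik. None of these 3 windows held TGACGTCA (the cyclic AMP response element, in 1.55% of all windows), its core TGACG (17.8%), GTAAACA (a FoxO site, 3.17%), CNAAGTCCA (an HNF4 site, 0.901%), the palindromic glucocorticoid response element (0.00913%), CCAAT (33.8%) or TATAAA (12.4%), each sought on both strands, where TGACGTCA always contains TGACG. Among the other windows examined, that of Nags held 2 GC boxes and that of Glul held 1 GC box and 2 CCAAT boxes. That of Slc25a13, also trimmed, held no match in the 119 bases left. The Ass1 and Otc windows had 187 and 175 bases. A lack of matches in these trimmed windows is thus not on a like scale with shares from 250 bases.

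Levels were compared between genes on the TPM scale, which divides by transcript length. Cps1 had the highest mean over the 6 libraries, 842 TPM, and ranked 103 among protein-coding genes. It was followed by Arg1 at 774 TPM, Ass1 at 470 TPM, Glul at 394 TPM, Otc at 235 TPM, Asl at 209 TPM and Slc25a13 at 203 TPM. Slc25a15 at 76.6 TPM, Gls2 at 48.3 TPM and Nags at 18.6 TPM closed the order.

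Neighbours in this order were not all separate. Cps1 exceeded Arg1 in 4 of 6 libraries, Ass1 exceeded Glul in 4, Otc exceeded Asl in 4 and Asl exceeded Slc25a13 in 4, so the members of these pairs were not separated beyond their spread. The ranges were apart for Glul over Otc and for Slc25a13 over Slc25a15, in which every library of the former gene was above every library of the latter. Arg1 was above Ass1, Slc25a15 above Gls2 and Gls2 above Nags within each of the 6 libraries, although their ranges met. Nags, the enzyme that makes the activator of CPS1, had between 1.89% and 2.85% of the TPM of Cps1.

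**Figure D1:**
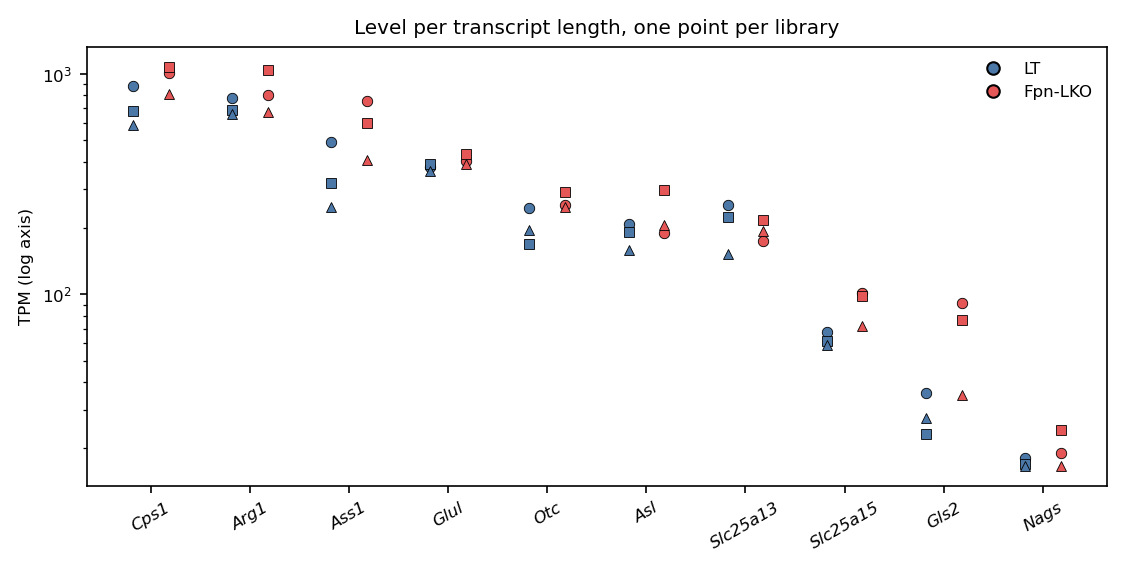
Level per transcript length of the 10 genes in TPM on a log axis, ordered by the mean over 6 libraries, with 1 point per library (circle, square and triangle for replicates 1, 2 and 3, blue for LT, red for Fpn-LKO). Cps1 and Arg1 share the top of the order and Nags is lowest, and the Fpn-LKO points of Gls2 spread from 34.9 to 91.8 TPM.

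Across the 10 genes, 9 had a higher fitted level in Fpn-LKO than in LT and Slc25a13 alone was lower, but none passed the test. After Benjamini-Hochberg adjustment over every gene tested, the p-values of edgeR's quasi-likelihood test ran from 0.982 to 0.995, and 0 of 10 were under 0.05, where 0.0232% of all genes tested passed. Of the 10 genes, 3 had an unadjusted p under 0.05 (Ass1, Gls2 and Slc25a15), all higher in Fpn-LKO, against 2.62% of all genes that were higher and 2.19% that were lower at this level. The groups did not overlap for 3 genes (Otc, Gls2 and Slc25a15), each higher in Fpn-LKO, against 5.25% of all genes with every Fpn-LKO library above every LT library and 5.34% with the reverse. The median log2 fold change of the 10 genes was 0.25, beside -0.0040 over all genes tested, of which 49.4% were positive. The genes were picked as a pathway, after earlier results of these data were known, and are not independent of each other. These counts therefore describe the 10 genes only and are no test of them against all genes.

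The mitochondrial enzymes of the cycle were both higher in mean. Cps1 (GRCm38 chr1:67122426-67231267, plus strand), which makes carbamoyl phosphate from ammonia and bicarbonate, was at 3482, 3024 and 2833 CPM in LT and at 4558, 4003 and 3409 CPM in Fpn-LKO. Fpn-LKO replicate 3 lay below LT replicate 1, so the groups overlapped, and Cps1 had a log2 fold change of 0.36 with a 95% interval from -0.10 to 0.82 and an unadjusted p of 0.109 by edgeR's quasi-likelihood test. Otc (chrX:10252230-10321024, plus strand), which joins carbamoyl phosphate to ornithine, was at 416, 320 and 403 CPM in LT and at 482, 457 and 445 CPM in Fpn-LKO. Every Fpn-LKO library of Otc was above every LT library, with a narrow spread in Fpn-LKO. Its log2 fold change was 0.28 (95% interval -0.052 to 0.61) with an unadjusted p of 0.0868 by edgeR, and 0.18 without LT replicate 2. The TPM of Otc was between 25.0% and 33.5% of that of Cps1 in LT and between 25.1% and 30.9% in Fpn-LKO, so the proportion of both enzymes' transcripts overlapped between groups.

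Ass1 had the widest difference among the cytosolic enzymes. Ass1 (chr2:31470270-31520670, plus strand), which condenses citrulline with aspartate, was at 570, 418 and 354 CPM in LT and at 995, 650 and 504 CPM in Fpn-LKO. The highest LT library stood above the lowest Fpn-LKO library, so the groups overlapped. Its log2 fold change was 0.68 ± 0.28 (SE), a fold of 1.60, with an unadjusted p of 0.0458 and an adjusted p of 0.982 by edgeR's quasi-likelihood test. Without Fpn-LKO replicate 1 the log2 fold change of Ass1 was 0.37, and without LT replicate 1 it was 0.89. Gm5424, a processed pseudogene whose transcript is 99.5% identical to Ass1 over 1240 bases, can share its reads, but held only between 1.24% and 1.60% as many counts as Ass1, and adding them to Ass1 gave a log2 fold change of 0.68.

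Asl and Arg1, the last enzymes of the cycle, overlapped between groups. Asl (chr5:130011258-130024381, minus strand), which splits argininosuccinate into arginine and fumarate, was at 260, 270 and 241 CPM in LT and at 268, 351 and 275 CPM in Fpn-LKO. Fpn-LKO replicates 2 and 3 of Asl were above every LT library, replicate 3 by little, and replicate 1 lay among them. The unadjusted p was 0.172 by edgeR with a log2 fold change of 0.21, which was 0.08 without Fpn-LKO replicate 2. Arg1 (chr10:24915207-24927470, minus strand), which releases urea from arginine, was at 821, 810 and 844 CPM in LT and at 958, 1031 and 750 CPM in Fpn-LKO. The LT libraries of Arg1 lay close together, and those of Fpn-LKO fell on both sides of them (log2 fold change 0.15, unadjusted p of 0.389 by edgeR, and 0.05 on the log2 scale without Fpn-LKO replicate 2). Summed over the 5 cycle enzymes, LT libraries had 5547, 4841 and 4675 CPM and Fpn-LKO libraries 7261, 6491 and 5383 CPM, a sum dominated by Cps1 in which the groups overlapped.

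Nags (chr11:102145513-102149528, plus strand), the source of the CPS1 activator, was the member with the lowest level. It was at 27.2, 28.8 and 30.8 CPM in LT and at 32.7, 34.2 and 26.7 CPM in Fpn-LKO. Fpn-LKO held both the highest libraries and the lowest, and the log2 fold change was 0.11 (unadjusted p of 0.413 by edgeR). An antisense gene, Gm11586, overlaps exons of Nags and had between 0.705% and 3.37% as many counts.

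**Figure D2:**
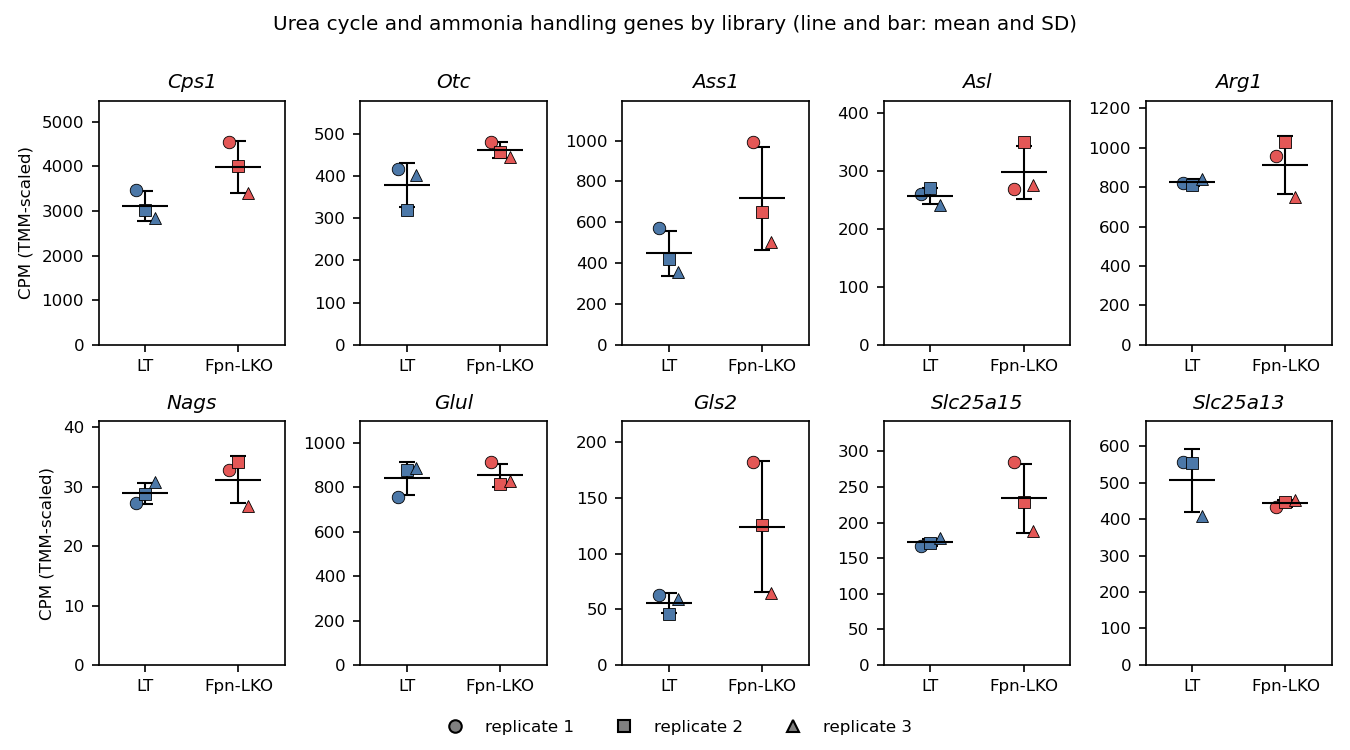
CPM after TMM scaling of each of the 10 genes in the 3 LT (blue) and 3 Fpn-LKO (red) libraries, 1 point per library, with the group mean and SD as lines, each panel starting at 0. Every Fpn-LKO point lies above every LT point for Otc, Gls2 and Slc25a15. In Gls2 the Fpn-LKO points run from 65.0 to 182 CPM, the lowest only just above the highest LT point at 62.8 CPM.

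Both enzymes that meet at glutamine differed in pattern. Gls2 (chr10:128194635-128210004, plus strand), which frees ammonia from glutamine in mitochondria, was at 62.8, 45.6 and 59.1 CPM in LT and at 182, 125 and 65.0 CPM in Fpn-LKO. Every Fpn-LKO library was above every LT library, but replicate 3 only just, at 65.0 against 62.8 CPM for the highest LT library. In TPM this order turned, with Fpn-LKO replicate 3 at 34.9 TPM and LT replicate 1 at 35.8 TPM, so the separation of Gls2 depended on the scaling. The log2 fold change of Gls2 was 1.15 ± 0.34 (SE), a fold of 2.23 (95% interval 1.28 to 3.87), with an unadjusted p of 0.0105 and an adjusted p of 0.982 by edgeR's quasi-likelihood test. This was the largest fitted change of the 10 genes. It was 0.77 on the log2 scale without Fpn-LKO replicate 1 and 1.46 without Fpn-LKO replicate 3, where the adjusted p by edgeR was 0.326.

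Spryd4, a protein-coding gene on the opposite strand, overlaps exons of Gls2, and whether counting used strand is not given in the sources used here. Spryd4 had between 14.0% and 62.5% as many counts as Gls2 in a library, and any sharing of reads was not tested. Spryd4 was at 24.3, 26.4 and 30.2 CPM in LT and at 25.5, 29.8 and 40.6 CPM in Fpn-LKO. It was highest in Fpn-LKO replicate 3, the Fpn-LKO library in which Gls2 was lowest, and its log2 fold change was 0.25 with an unadjusted p of 0.223 by edgeR.

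Glul (chr1:153899929-153909723, plus strand), the pericentral glutamine synthetase, was at 756, 878 and 889 CPM in LT and at 915, 818 and 830 CPM in Fpn-LKO. The groups overlapped, with a log2 fold change of 0.022 and a 95% interval from -0.31 to 0.35, and its sign changed when LT replicate 1 or Fpn-LKO replicate 1 was left out. Teddm2 and Mir8114 overlap Glul and had at most 0.0299% as many counts, while 3 processed pseudogenes at least 90.5% identical to Glul over 597 bases or more have no row under their names in the table. On the TPM scale Gls2 was at 9.46%, 5.91% and 7.58% of Glul in LT and at 22.7%, 17.5% and 8.93% in Fpn-LKO, so that Fpn-LKO replicates 1 and 2 stood above the LT libraries and replicate 3 among them.

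The mitochondrial carriers went in opposite directions in mean. Slc25a15 (chr8:22375550-22398621, minus strand), which exchanges ornithine for citrulline, was at 167, 172 and 178 CPM in LT and at 285, 228 and 188 CPM in Fpn-LKO. The LT libraries agreed closely and every Fpn-LKO library was above them. The log2 fold change of Slc25a15 was 0.44 ± 0.16 (SE), a fold of 1.36, with an unadjusted p of 0.0274 and an adjusted p of 0.982 by edgeR's quasi-likelihood test. Without Fpn-LKO replicate 1 it was 0.28. Slc25a13 (chr6:6041218-6217304, minus strand), the carrier that sends aspartate out to the cytosol, was at 557, 554 and 407 CPM in LT and at 432, 446 and 451 CPM in Fpn-LKO. Both LT replicates 1 and 2 stood above all Fpn-LKO libraries and LT replicate 3 below them, and the log2 fold change was -0.19 (unadjusted p of 0.255 by edgeR). Without LT replicate 3 the log2 fold change of Slc25a13 was -0.33, with an unadjusted p of 0.0353 by edgeR. In TPM, Slc25a15 was at 26.4%, 27.4% and 38.6% of Slc25a13 in LT and at 58.4%, 45.3% and 36.9% in Fpn-LKO, where only replicate 3 of Fpn-LKO lay among the LT libraries.

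**Figure D3:**
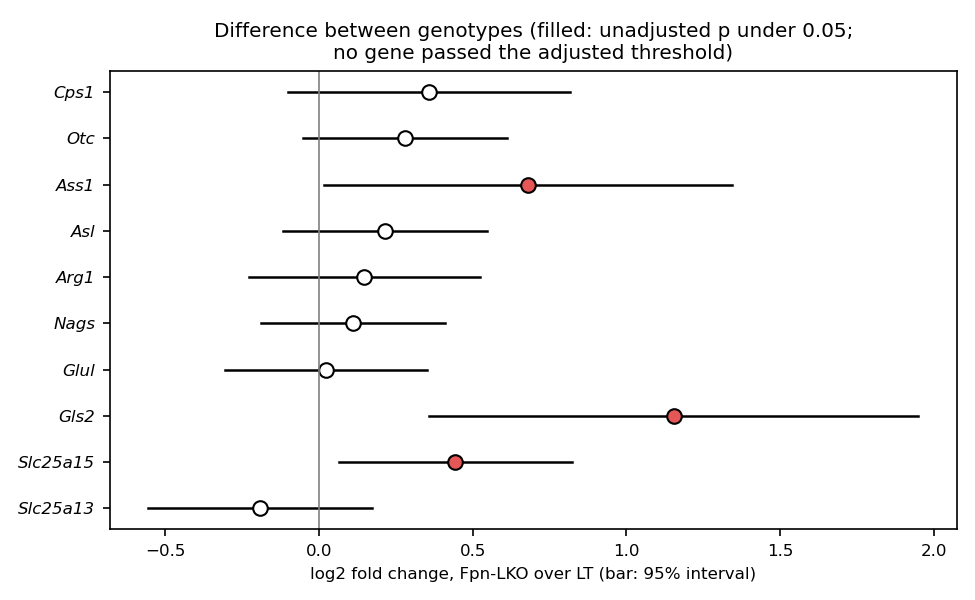
Log2 fold change of Fpn-LKO over LT for the 10 genes (points) with its 95% interval (bars) from edgeR's quasi-likelihood fit, filled where the unadjusted p is under 0.05. The intervals of Ass1, Gls2 and Slc25a15 lie above 0, from 0.02 to 1.34 for Ass1, and no gene passed after adjustment.

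The Fpn-LKO libraries did not carry the difference equally. Fpn-LKO replicate 1 had the highest CPM of all libraries for 6 of the 10 genes and replicate 2 for 3, whereas replicate 3 had it for none and had the lowest for 2. Replicates 1 and 2 each exceeded every LT library for 8 genes and replicate 3 for 4. The 10 genes together took 0.743%, 0.655% and 0.594% of counts in LT and 0.928%, 0.822% and 0.674% in Fpn-LKO, so the groups overlapped. Kupffer cell markers summed to 376, 484 and 385 CPM in LT and to 395, 320 and 708 CPM in Fpn-LKO, with the highest sum in Fpn-LKO replicate 3 (0 of 11 genes at 0, exact two-sided permutation p of 0.8). Blood cell markers summed to 429, 964 and 366 CPM in LT and to 1029, 1256 and 512 CPM in Fpn-LKO. Fpn-LKO replicate 3 was lowest of its group (exact two-sided permutation p of 0.2). Of these markers 0 of 10 were at 0 in all libraries, but Cd3e and Cd79a were at 0 in some. The haemoglobin gene Hbb-bs alone had between 131.9 and 592.5 CPM in a library. The part of Kupffer and blood cells in the differences of the 10 genes was not tested. In bulk liver, fewer hepatocytes and less RNA per hepatocyte cannot be told apart. Endothelial and stellate markers lay between 445 and 474 CPM in LT and between 423 and 461 CPM in Fpn-LKO, cholangiocyte markers summed to 84.4 CPM in LT replicate 3 and to at most 29.9 CPM elsewhere, with 83.1 CPM of the former from Spp1 alone and Krt19, Krt7 and Cftr at 0 there, and of the 8 pancreatic markers 6 were at 0 in all libraries.

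The profile of the 10 genes over the 6 libraries, as the mean of their centred log2 CPM, was -0.08, -0.19 and -0.19 in LT and 0.34, 0.21 and -0.09 in Fpn-LKO. Cps1 followed this mean most closely, with a root mean square difference of 0.06, then Slc25a15 at 0.10 and Arg1 at 0.12, while Gls2 lay farthest at 0.50. Of 4372 other genes with a mean of at least 10 TPM, those nearest to the profile were Atp6v1a (0.05), which encodes a subunit of the vacuolar proton pump, Mrap (0.07), an accessory protein of the melanocortin receptors, Pls3 (0.07), an actin-bundling protein, Ube2h (0.08), a ubiquitin-conjugating enzyme, and Nfe2l1 (0.08), a transcription factor of proteasome genes. These distances are over 6 libraries only and describe likeness, nothing more.

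Other genes of the same reactions were read beside the members. Slc25a12, the other aspartate-glutamate carrier, was at 14.9, 14.6 and 19.9 CPM in LT and at 12.2, 18.6 and 17.2 CPM in Fpn-LKO, with a log2 fold change of -0.04 that turned positive without LT replicate 3 or Fpn-LKO replicate 1. Arg2 and Slc25a2 stayed below 1 CPM in all 6 libraries, with log2 fold changes of -0.04 and -0.46, so these 3 genes did not share the upward direction of most members.

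Over all genes tested, 2.62% were higher and 2.19% lower at an unadjusted p under 0.05. Every Fpn-LKO library was above every LT library for 5.25% of them. Enzymes and carriers that feed or drain the cycle were tested for 18 of 18 genes, of which 14 had a positive log2 fold change (median 0.15), 1 had an unadjusted p under 0.05, higher, and 0 passed after adjustment. That gene was Fh1, the fumarate hydratase that takes up fumarate, at 159, 139 and 164 CPM in LT and at 191, 218 and 223 CPM in Fpn-LKO. All 3 Fpn-LKO libraries of Fh1 were above all LT libraries, replicate 3 included, with a log2 fold change of 0.45 ± 0.12 (SE), an unadjusted p of 0.00663 and an adjusted p of 0.861 by edgeR's quasi-likelihood test. Oat, which removes ornithine, was at 1250, 756 and 445 CPM in LT and at 2432, 1004 and 1459 CPM in Fpn-LKO. Got1, the cytosolic aspartate aminotransferase, was at 71.4, 29.9 and 33.7 CPM in LT and at 110, 74.4 and 55.0 CPM in Fpn-LKO. Both overlapped between groups, with log2 fold changes of 1.00 for Oat and 0.83 for Got1 and unadjusted p-values by edgeR of 0.0540 and 0.0622. Without Fpn-LKO replicate 1 the log2 fold change was 0.59 for Oat and 0.52 for Got1, and without LT replicate 1 it was 1.33 for Got1.

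Genes that release or move amino nitrogen, mostly in amino acid catabolism but with Asns among them, were all tested. Of these, 18 of 23 had a positive log2 fold change (median 0.23), with 1 at an unadjusted p under 0.05, higher, and 0 after adjustment. The share of all genes tested that were higher at this level was 2.62%. Sds, the serine dehydratase that releases ammonia from serine, was at 16.9, 25.5 and 32.1 CPM in LT and at 87.2, 64.3 and 28.2 CPM in Fpn-LKO. As with Gls2, Fpn-LKO replicates 1 and 2 of Sds were high and replicate 3 was not, here lying among the LT libraries (log2 fold change 1.27, unadjusted p of 0.0152 by edgeR). Asns, which uses nitrogen of glutamine to make asparagine, was at 1.77, 14.0 and 34.9 CPM in LT and at 3.63, 2.08 and 6.29 CPM in Fpn-LKO. The LT libraries of Asns differed among themselves more than the groups did, and its log2 fold change of -2.08 had a 95% interval from -4.18 to 0.03 and was -0.98 without LT replicate 3.

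Of 17 plasma membrane carriers and channels, 12 were tested (Slc38a5, Rhcg, Aqp3, Slc14a1 and Slc14a2 did not pass the filter), 9 had a positive log2 fold change (median 0.14), 1 had an unadjusted p under 0.05, higher, and 0 passed after adjustment. Among all genes tested, 2.62% were higher at this level and 5.25% had every Fpn-LKO library above every LT library. Aqp8, a water channel that also conducts ammonia, was at 31.1, 31.9 and 36.6 CPM in LT and at 86.2, 57.8 and 48.6 CPM in Fpn-LKO. The groups of Aqp8 did not overlap, and its log2 fold change was 0.95 ± 0.21 (SE), with an unadjusted p of 0.00236 and an adjusted p of 0.649 by edgeR's quasi-likelihood test. The call depended on the test, since DESeq2 gave Aqp8 an adjusted p of 0.0115 and edgeR's exactTest 0.0302. Slc7a2, a carrier of arginine and ornithine, was at 480, 451 and 266 CPM in LT and at 721, 622 and 388 CPM in Fpn-LKO, with overlapping groups and a log2 fold change of 0.53.

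Other users of arginine and ornithine had 16 of 18 genes tested (Nos1 and Nos2 did not pass the filter), 10 of them with a positive log2 fold change (median 0.17), 1 at an unadjusted p under 0.05, higher, and 0 after adjustment. Here too, 2.62% of all genes tested were higher at this level. Odc1, which starts polyamine synthesis from ornithine, was at 40.9, 56.2 and 61.9 CPM in LT and at 60.4, 77.9 and 74.7 CPM in Fpn-LKO. The Odc1 groups met at their edges (log2 fold change 0.42, unadjusted p of 0.0471 by edgeR, and 0.27 on the log2 scale without LT replicate 1). Nos3, the endothelial nitric oxide synthase, was between 1.65 and 2.29 CPM in LT and between 1.41 and 3.29 CPM in Fpn-LKO.

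**Figure D4:**
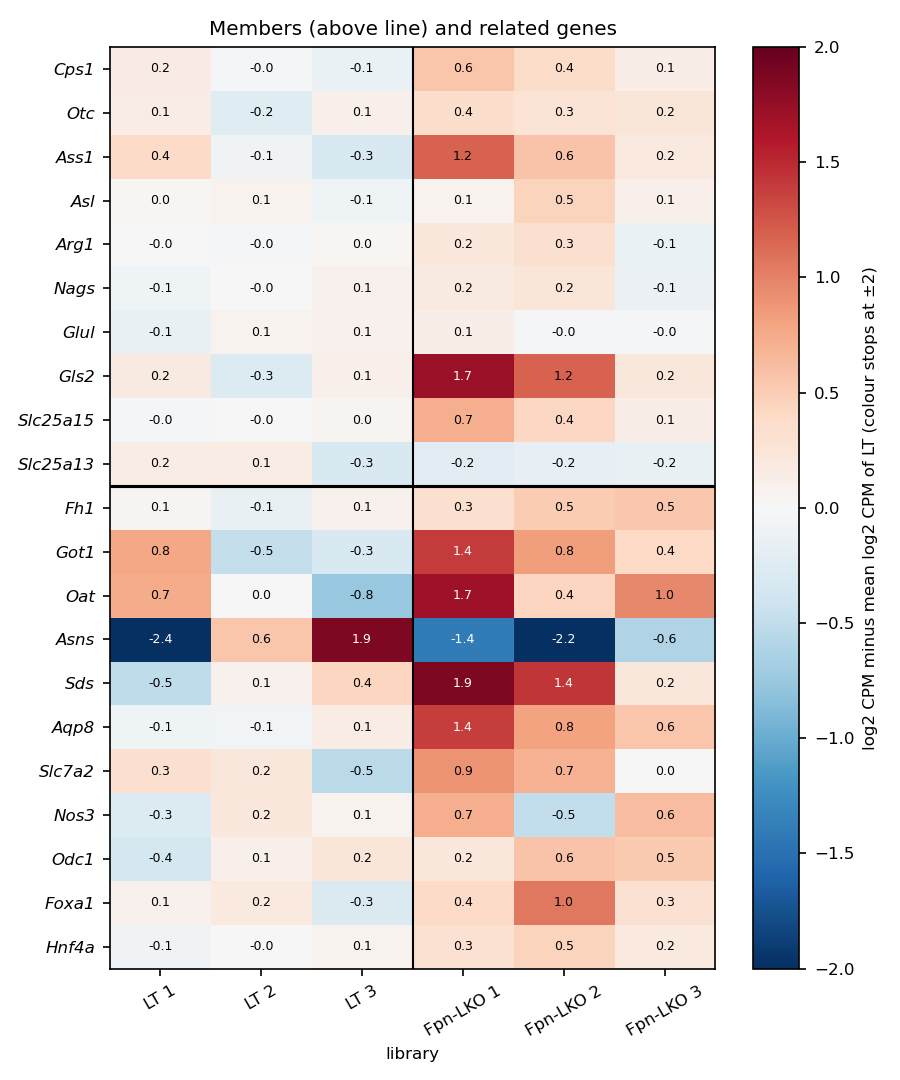
Log2 CPM minus the LT mean of log2 CPM, per library, for the 10 genes (above the line) and related genes (below it), with the value printed in each cell and the colour limited at 2 in either direction. The columns of Fpn-LKO replicates 1 and 2 are redder than that of replicate 3 for Gls2, Sds and Ass1, whereas Fh1 is similar in all 3 Fpn-LKO columns.

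Receptors and transcription factors known to act on these genes had 17 of 18 tested (Glp1r did not pass), 10 with a positive log2 fold change (median 0.06), 2 with an unadjusted p under 0.05, both higher, and 0 after adjustment. For comparison, 2.62% of all genes tested were higher at this level. Every Fpn-LKO library was above every LT library for 5.25% of all genes, and below for 5.34%. Hnf4a, a nuclear receptor central to hepatocyte identity, was at 239, 250 and 265 CPM in LT and at 310, 344 and 286 CPM in Fpn-LKO. Its groups did not overlap and its log2 fold change was 0.32 (unadjusted p of 0.0328 by edgeR). Foxa1, a pioneer factor of hepatic genes, was at 4.98, 5.36 and 3.84 CPM in LT and at 6.08, 9.68 and 5.80 CPM in Fpn-LKO, again without overlap (log2 fold change 0.60, unadjusted p of 0.0468 by edgeR, and 0.33 on the log2 scale without Fpn-LKO replicate 2). In the other direction, Gcgr, the glucagon receptor, chosen after its values were seen, was at 250, 235 and 226 CPM in LT and at 219, 210 and 213 CPM in Fpn-LKO. Every Fpn-LKO library of Gcgr was below every LT library, and its log2 fold change was -0.15 with an unadjusted p of 0.207 by edgeR.

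Because the cycle is periportal and Glul pericentral, genes of both zones were read beside them. Of 13 periportal genes 9 had a positive log2 fold change, with a median of 0.31, and of 18 pericentral genes 13 did, with a median of 0.17, so both lists lay on the same side of the median of all genes, and 0 genes of either passed after adjustment. Without adjustment, 2.62% of all genes tested were higher and 2.19% lower at a p under 0.05. At an unadjusted p under 0.05, 2 periportal genes were higher, Sds and Ctsc, a lysosomal protease (log2 fold change 0.85, from 38.3, 48.8 and 46.2 CPM in LT to 59.8, 60.7 and 120 CPM in Fpn-LKO). Without Fpn-LKO replicate 3, the library with the highest sum of Kupffer cell markers, the log2 fold change of Ctsc was 0.44. Of the pericentral genes, 2 were higher at this level, Slc13a3, a dicarboxylate carrier (0.95 on the log2 scale), and Cldn2, a tight junction protein (0.60), and 1 was lower, Cyp7a1, the rate-limiting enzyme of bile acid synthesis (-1.42, and -2.15 without Fpn-LKO replicate 2). Oat, Rhbg, Slc1a2, Sds and Hal stand in more than 1 of the lists described, and Tat and Hnf4a stand also among the hepatocyte markers.

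**Figure D5:**
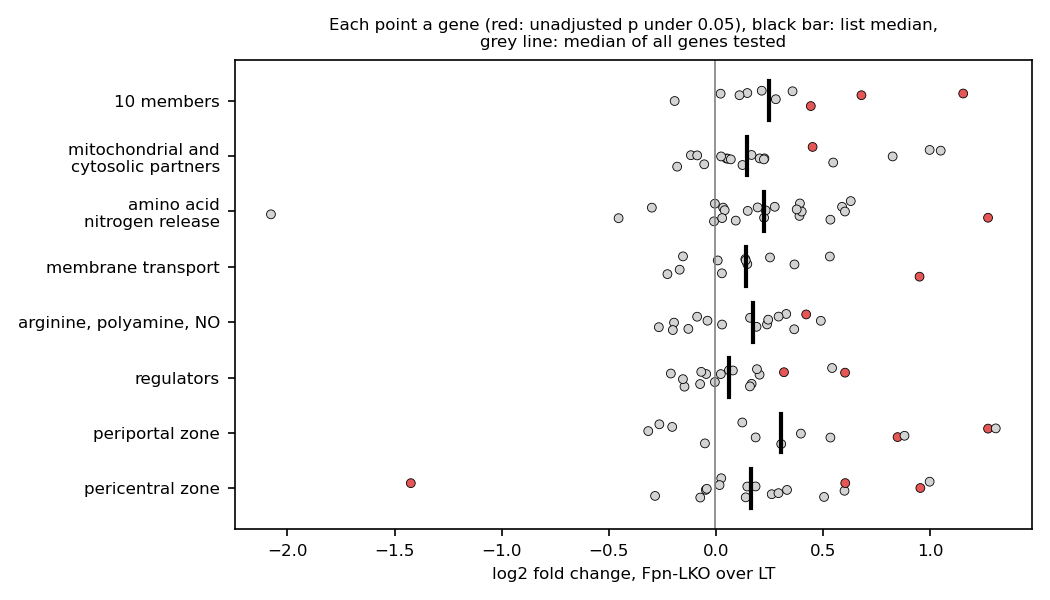
Log2 fold change of Fpn-LKO over LT for each tested gene of the 10 members and of lists of related genes (points, red where the unadjusted p is under 0.05), with the list median as a black bar and the median of all genes tested as a grey line. The median of the 10 genes is 0.25, and among the lists drawn the median is lowest for the regulators, at 0.06, and highest for the periportal genes, at 0.31.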

How the data were processed

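Liver RNA of 3 LT and 3 Fpn-LKO mice was sequenced, with groups and replicate numbers taken from the labels. The members and lists were chosen with earlier results of these data known. The labels name an mRNA kit and the methods a total RNA kit, both stranded. The authors aligned reads to mm10 (the labels' processing notes name HISAT2 2.1.0 and Bowtie2 2.3.4.1) and deposited raw read counts, made per gene with StringTie 2.1.3b. The authors also deposited TPM, scaled to transcript length with equal totals per library, and FPKM, used only to check the order of levels.

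Counts were tested with edgeR 4.0.16 in R 4.3.3 (quasi-likelihood, TMM, genes with 0 reads in more than 1 library left out), with Benjamini-Hochberg adjustment at 0.05 and checked on simulated data. P-values of 3 against 3 mice set the group difference against the spread between mice, estimated with information shared over genes. An exact permutation test cannot go below 0.1. Genes of a list were named at an unadjusted p under 0.05, or, where fewer than 2 qualified, as the 2 with the largest change and a mean of at least 1 CPM, and 1 gene so named is not reported here. Alternatives were other scalings and filters, DESeq2 1.42.0, exactTest, limma 3.58.1 on TPM, a replicate block, leaving out the poly(A)-lacking RNAs named above and leaving out each mouse. Coordinates (10 of 10 genes matched by NCBI gene identifier) and promoter windows (6 of 10) are from RefSeq GRCm38.p6. Gene strands are from GENCODE, which was also used to trim the windows. Overlaps and copies are from GENCODE transcripts, with BLAST 2.17.0.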

Additional observations from a re-analysis of the deposited data

How the results depend on the processing

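The number of genes with an adjusted p under 0.05 was 4 by edgeR's quasi-likelihood test, 72 with DESeq2, 63 with exactTest, 7 with limma on log2(TPM + 1) and 7 on log2(TPM + 0.1), 0 with a replicate block and between 0 and 6 when a mouse was left out. None of the 10 members passed under any of these. Same-numbered mice had correlations of deviations of 0.25, 0.03 and 0.13, and not every library correlated best with its own. These values cannot decide whether same-numbered mice were paired. With the replicate block the unadjusted p of Ass1 by edgeR was 0.00306, beside 0.0458 without it. Those of Gls2 and Slc25a15 rose to 0.0154 and 0.0426 by edgeR. The replicate block left 3 members with an unadjusted p under 0.05, as without it. That count was between 1 and 3 when a mouse was left out, 1 without LT replicate 2, Fpn-LKO replicate 1 or Fpn-LKO replicate 2, when only Gls2 remained, and 3 without LT replicate 3, where Ass1 was lost and Slc25a13 was lower. Ass1 lost it with upper-quartile scaling and with no scaling. Without scaling 1 member, Slc25a15, had groups that did not overlap, and on the TPM scale 2, Otc and Slc25a15. The median log2 fold change over the 11464 genes tested on TPM was 0.083 on log2(TPM + 1) and 0.097 on log2(TPM + 0.1), beside -0.0040 over the 17274 genes tested on counts. The adjusted p of Gls2 ran from 0.0732 to 1.00 and its log2 fold change from 0.77 to 1.46 over 17 alternatives.

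Signs of the log2 fold change turned when a mouse was left out for Glul (-0.048 without LT replicate 1, -0.03 without Fpn-LKO replicate 1, highest 0.065), Slc25a12 (0.12 without LT replicate 3 or Fpn-LKO replicate 1, lowest -0.16) and Slc40a1 (-0.11 without LT replicate 3, -0.096 without Fpn-LKO replicate 3, highest 0.14), and for Slc40a1 also with upper-quartile scaling (-0.0078) and no scaling (-0.0013). Aqp8 passed with DESeq2 (log2 fold change 0.96, adjusted p of 0.0115) and with edgeR's exactTest (log2 fold change 0.95, adjusted p of 0.0302). The causes were not tested. Adding the counts of Gm5424 to Ass1 was chosen after seeing the data. With 3 mice a group, the intervals of 7 of the 10 genes include 0, which does not show that they were unchanged.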
